A study of Mus musculus with 19 samples.

Results

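The interferon-stimulated cells are CD8 T cells that the authors placed in 1 of 13 named clusters of single-cell expression profiles, the one deposited as IFN_Stimulated. All cells with that cluster name were taken, which gave 1871 of 41099 cells, or 4.55%. Of these, 1305 came from tumours and 566 from spleens. The study injected A223, a mouse squamous cell carcinoma line, into C57BL/6J mice and sorted CD8 T cells after digestion of the tumours. Spleen T cells were read as well. Tumours and spleens are called here by their state and replicate number. Each library comes from the tumour or the spleen of mice whose tumour was regressing or growing, with 3 regressing tumours, 3 growing tumours, 2 spleens of the regressing state and 1 spleen of the growing state. No group received a treatment other than the tumour, no tumour-free mice were among the groups, and the labels give neither age nor number of mice per library. A p-value over these libraries therefore measures the spread between samples, which may be partly technical.

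Interferons are cytokines released on sensing of viral or damaged nucleic acid and, for interferon gamma, by activated T cells themselves. Their receptors act through JAK kinases and STAT transcription factors, which switch on a shared set of interferon-stimulated genes. The markers given with the label are of this set: Isg15 is a ubiquitin-like modifier, Ifit1 binds foreign RNA, Ifit3 is of the same protein family, and Irf7 is a transcription factor that amplifies interferon production. In CD8 T cells, interferon signals support priming and survival, and long exposure is linked to dysfunction. Expression of single genes was not analysed here, so the label rests on the authors' cluster name and could not be checked against these 4 markers. What follows therefore describes the share, the RNA content, the cell-cycle calls and the T cell receptors of the cluster's cells.

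The libraries held 1655 to 7832 cells and 10611320 to 58661165 UMIs, the counted RNA molecules. Regressing tumour 1 and growing tumour 1 come from the 3′ kit, and the remaining 7 libraries from the 5′ kit. The labels count 8 receptor libraries, but only cells of the 7 libraries of the 5′ kit carry a receptor label in the table. Growing tumour 3 stood apart in depth, with a median of 11712 UMIs per cell against 4638.5 to 7809 in the other 8 libraries. Across libraries, 988 cell barcodes were seen more than once. An interferon-stimulated cell carried 82 of them, 1 had such a cell in both libraries, and none joined the same named clonotype.

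Interferon-stimulated cells had a lower share in each growing tumour than in any regressing tumour, a difference that did not pass the test over libraries. They made up 101 of 1655 cells (6.10%), 441 of 7832 (5.63%) and 477 of 7276 (6.56%) in regressing tumours 1, 2 and 3. In growing tumours 1, 2 and 3 they made up 67 of 1790 cells (3.74%), 191 of 4262 (4.48%) and 28 of 1727 (1.62%). The regressing libraries lay close together, the growing ones were spread, and the groups did not overlap. The means were 3.28% ± 1.48 in growing and 6.10% ± 0.463 in regressing tumours (SD, n = 3 each, two-sided exact permutation p = 0.10, the smallest possible, adjusted p = 0.325 over 13 clusters). Of the 13 clusters, 30.8% did not overlap between the states, and 7.69% were lower in all growing libraries, which was this cluster alone. Under limma on logit shares the difference did not pass the threshold of 0.05 (adjusted p = 0.135). Within the 5′ kit the difference was -3.04 percentage points, and the 3′ kit gave 1 library a state, 3.74% in growing and 6.10% in regressing.

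The share was also lower in growing tumours when dividing and naive cells were left out of the denominator. Among cells outside the 3 clusters named Dividing, the share was 4.31% ± 1.84 in growing and 6.95% ± 0.395 in regressing tumours (SD, n = 3 each). Outside both the Dividing and the Naive clusters it was 5.25%, 6.32% and 2.40% in growing tumours 1, 2 and 3, against 7.02%, 6.87% and 7.63% in regressing tumours 1, 2 and 3. These groups did not overlap either (exact permutation p = 0.10 for each denominator). Growing tumour 2 then lay just under the lowest regressing library, regressing tumour 2, and its exact 95% interval of 5.48% to 7.24%, which covers counting error only, included that library's value.

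**Figure D1:**
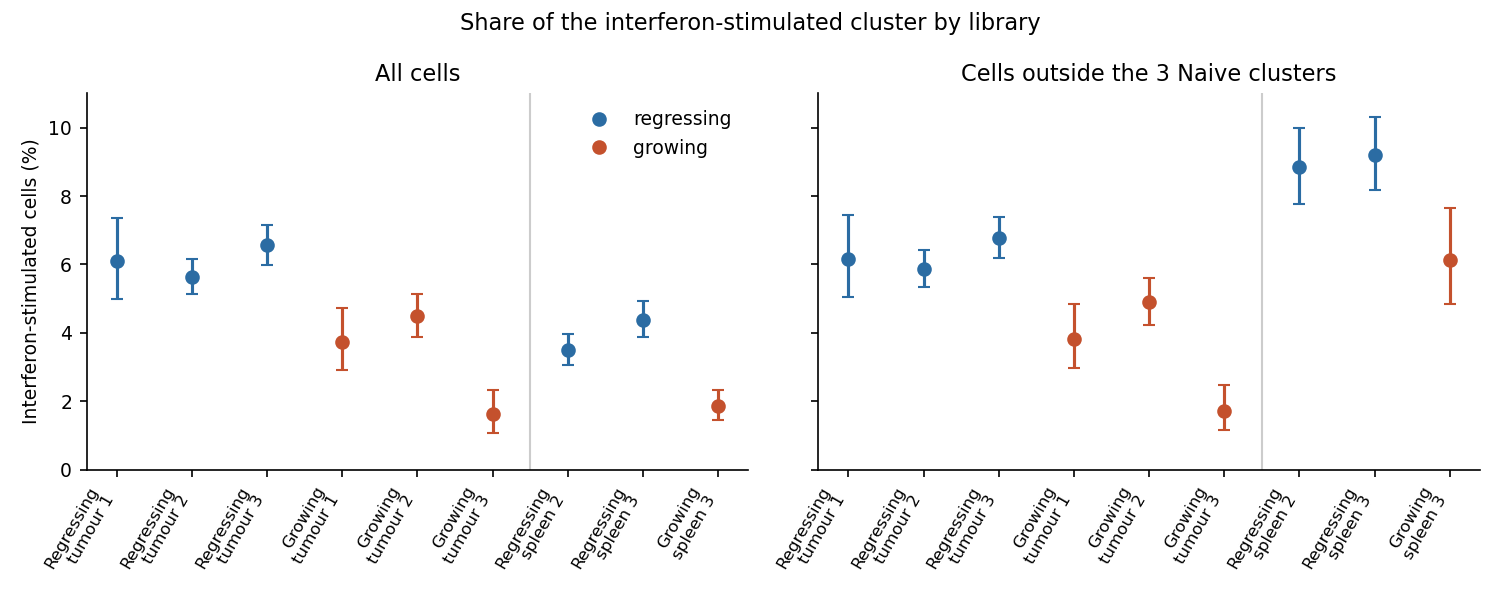
Percent of cells in the interferon-stimulated cluster (vertical axis) in each of the 9 libraries, over all cells on the left and over cells outside the 3 Naive clusters on the right; points are libraries and bars exact 95% binomial intervals. The 3 growing tumours lie at 1.62% to 4.48% of all cells, below the regressing tumours at 5.63% to 6.56%, and spleens lie above tumours of the same state and number only in the right panel, except that growing spleen 3 is above its tumour in both.

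In the 4 tumour libraries with receptor labels, the share was lower in growing tumours within each class of receptor label. Cells of clonotypes that the authors gave a name, each a set of cells with the same receptor chains, were interferon-stimulated in 4.79% (124 of 2588) and 6.18% (238 of 3852) in regressing tumours 2 and 3. In growing tumours 2 and 3 they were so in 4.23% (68 of 1609) and 0.917% (9 of 981). Growing tumour 2 lay just under regressing tumour 2, and their exact 95% intervals (3.30% to 5.33% and 4.0% to 5.69%) overlapped. Labelled cells without a clonotype name, deposited as Other, gave 7.15% (114 of 1595) and 5.97% (65 of 1088) in regressing tumours 2 and 3. They gave 4.91% (77 of 1568) and 2.54% (8 of 315) in growing tumours 2 and 3. Cells with no receptor label gave 5.56% (203 of 3649) and 7.45% (174 of 2336), against 4.24% (46 of 1085) and 2.55% (11 of 431).

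The difference between the states was of like size in the 3 classes, at -2.91 percentage points among named clonotypes, -2.84 among Other cells and -3.11 among unlabelled cells. No class overlapped between the states, but with 2 libraries against 2 the exact permutation p was 0.33 for each, the smallest possible. Over the 13 clusters, 69.2% did not overlap among named cells, 30.8% among Other cells and 84.6% among unlabelled cells. The lack of overlap in the named and unlabelled classes is thus close to what most clusters showed. Without growing tumour 3 the differences were -1.26, -1.65 and -2.27 percentage points. Without growing tumour 2 they were -4.57, -4.02 and -3.95.

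**Figure D2:**
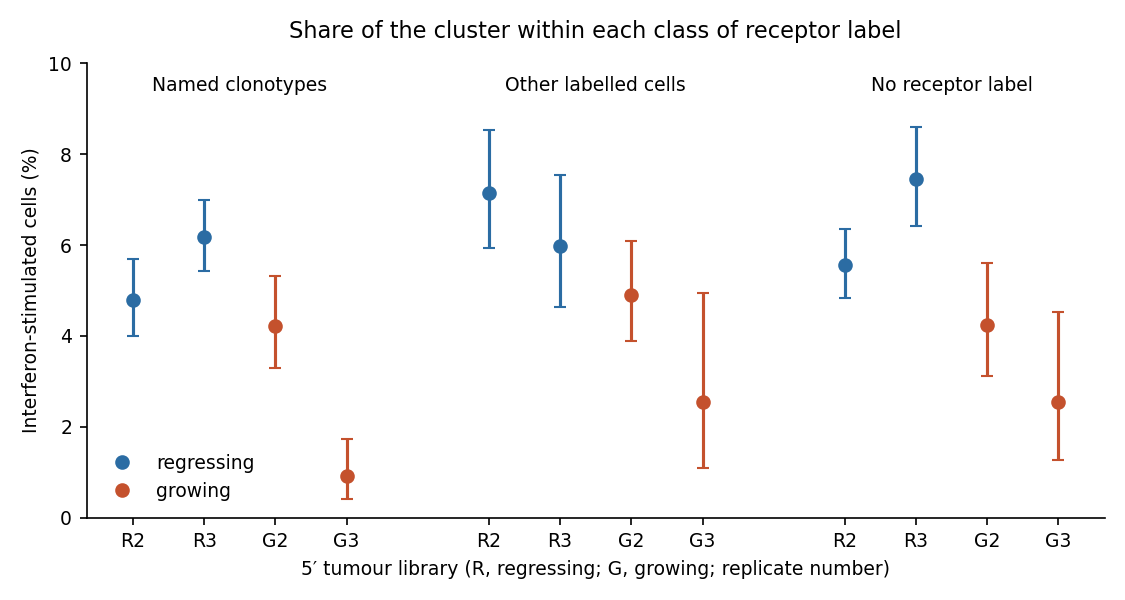
Percent of cells in the interferon-stimulated cluster (vertical axis) among cells of named clonotypes, Other labelled cells and cells with no receptor label, in the 4 tumour libraries of the 5′ kit; bars are exact 95% binomial intervals. In each class both growing libraries lie under both regressing ones, with growing tumour 3 the lowest at 0.917%, 2.54% and 2.55%.

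In 3 cases a clonotype had 20 or more cells in both a growing and a regressing tumour, and they did not all show the difference. These are matches of receptor chains between different tumours, and no clone was followed from one state to the other. The largest clone of growing tumour 3 had 1 interferon-stimulated cell of 249 there (0.402%, exact 95% interval 0.0102% to 2.22%). In regressing tumour 2 the same receptor had 7 of 100 (7%, 2.86% to 13.9%), and these intervals did not overlap. A clonotype with 53 cells in growing tumour 2 had 0 interferon-stimulated cells there, which allows up to 5.66%, and 3 of 102 in regressing tumour 3 (2.94%, 0.611% to 8.36%). It had the lowest share among clonotypes of 50 or more cells in both of these tumours. Another had 4 of 81 in growing tumour 2 (4.94%, 1.36% to 12.2%) and 4 of 108 in regressing tumour 2 (3.70%, 1.02% to 9.21%). Only the first of these 3 clonotypes had intervals that did not overlap, and it is the one read in growing tumour 3, the library with the lowest share in every class.

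Of the beta chains of named clonotypes, 1 was read in all 4 tumours with 20 or more cells in each. Its cells were interferon-stimulated in 18 of 384 (4.69%) in regressing tumour 2 and 30 of 257 (11.7%) in regressing tumour 3. In growing tumour 2 they were so in 4 of 81 (4.94%), and in growing tumour 3 in 1 of 47 (2.13%). The exact 95% intervals of the regressing tumours, 2.80% to 7.31% and 8.02% to 16.2%, did not overlap, and those of the growing tumours overlapped both. Another beta chain was also read in all 4, but with 6, 9 and 1 cells outside regressing tumour 3, where it had 14 of 66 (21.2%).

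The interferon-stimulated share was spread over the clonotypes of a tumour. In the regressing tumours the exact 95% intervals at the ends of the range did not overlap. Those ends were picked by their shares, so whether the spread exceeds counting error was not tested. Among named clonotypes of 20 or more cells the share ran from 1.14% to 15% over 22 clonotypes in regressing tumour 2, with a median of 3.80%. It ran from 2.94% to 21.2% over 17 clonotypes in regressing tumour 3 (median 7.53%). In growing tumour 2 it ran from 0% to 9.30% over 16 clonotypes (median 3.68%), and in growing tumour 3 from 0% to 4% over 13 (median 0%). Within each growing tumour the exact 95% intervals of all these clonotypes overlapped. All 39 clonotypes of this size in the regressing libraries had at least 1 interferon-stimulated cell, against 14 of 16 and 6 of 13 in growing tumours 2 and 3. Clones in the growing libraries were smaller, with the largest at 493 and 249 cells against 560 and 2137, and a count of 0 is reached more easily in a small clone. Over all sizes, 58 of 71 named clonotypes had such a cell.

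In regressing tumour 3, a clone of 66 cells stood highest with 14 interferon-stimulated cells (21.2%, exact 95% interval 12.1% to 33.0%). The dominant clone of that tumour had 100 of 2137 (4.68%, 3.82% to 5.66%) and made up 33.0% of labelled interferon-stimulated cells but 43.9% of the other labelled cells. Next in number of interferon-stimulated cells were a clone with 20 of 234 (8.55%) and one with 17 of 129 (13.2%). The intervals of the clone at the top of the range and of the dominant clone did not overlap, but the top clone was picked by its share.

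In regressing tumour 2, the largest clone had 20 interferon-stimulated cells of 560 (3.57%, 2.19% to 5.46%). A smaller clone had 13 of 89 (14.6%, 8.01% to 23.7%) and another 11 of 199 (5.53%). The ends of the range, 9 of 60 (15%, 7.10% to 26.6%) and 3 of 263 (1.14%, 0.236% to 3.30%), did not overlap. Of the remaining cells of the clones at 14.6% and 15%, 5.26% and 7.84% were in the clusters named Activated_Exhausted and Alternative_Exhausted, against 59.8% for the largest clone. Other clones did not follow this order. Clones with shares of 11.7% and 11.5% had 50% and 45.7% of their remaining cells in these clusters, and the clone at 1.14% had 31.5%. Over the 22 clonotypes of 20 or more cells, Spearman's rho between the interferon-stimulated and the exhausted share was -0.190.

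In growing tumour 2 the largest clone had 17 interferon-stimulated cells of 493 (3.45%, 2.02% to 5.46%). Clones with 11 of 162 (6.79%) and 9 of 138 (6.52%) followed, and the highest share among clones of 50 or more cells was 4 of 58 (6.90%, 1.91% to 16.7%). In growing tumour 3, no clonotype had 5 such cells. Its second largest clone had 0 of 154, which allows up to 1.95%, and one of 55 cells had 0 as well, which allows up to 5.45%. The top of the range there was 2 of 52 (3.85%, 0.469% to 13.2%).

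**Figure D3:**
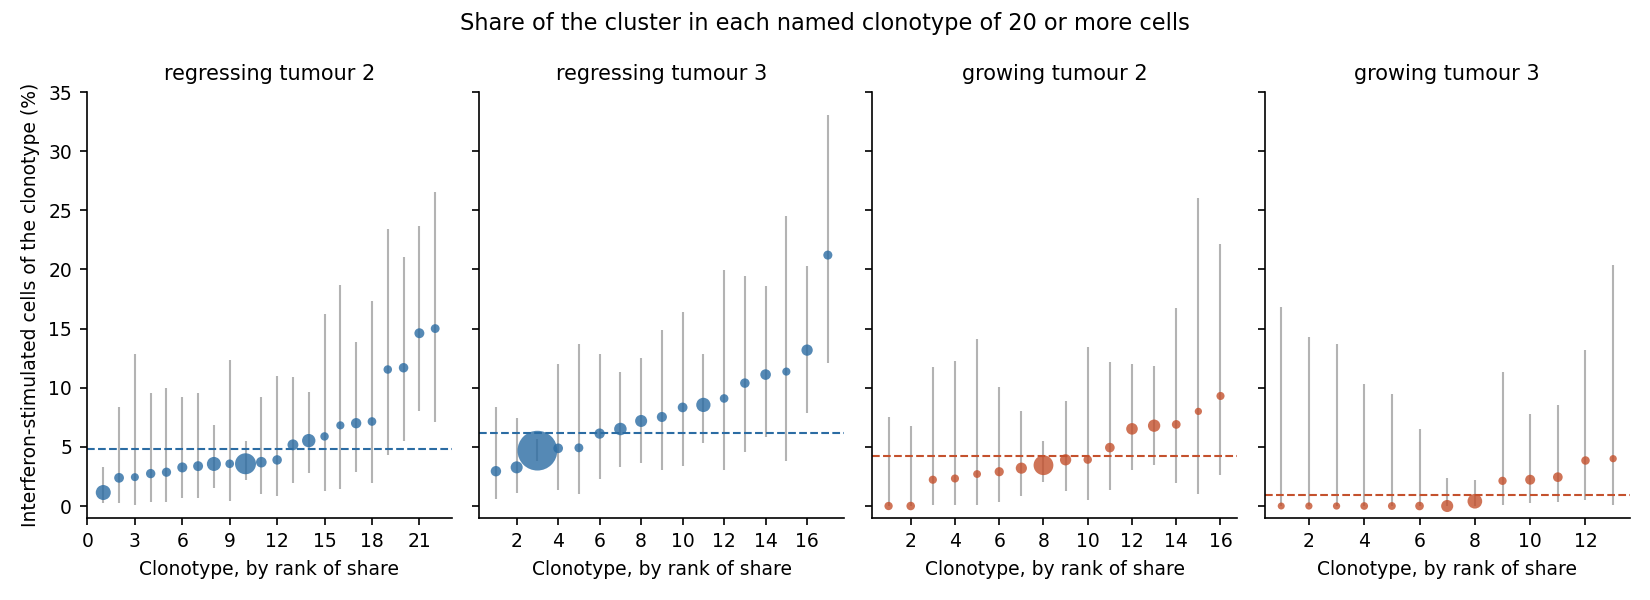
Percent of the cells of each named clonotype of 20 or more cells that are in the interferon-stimulated cluster (vertical axis), ordered by that share (horizontal axis) in each of the 4 tumour libraries; point area grows with the number of cells, bars are exact 95% intervals and the dashed line is the share over all named cells. Shares reach 15% and 21.2% in the regressing libraries and 9.30% and 4% in the growing ones, and the dominant clone of regressing tumour 3 lies near the low end of its library.

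Some clones were read both as an alpha and beta pair and with a second alpha chain in the same library, which sets a repeat reading of a receptor beside the first. In regressing tumour 3 the dominant pair had 4.68% and the same pair with a second alpha chain 3.27% (5 of 153). A smaller pair there had 11.4% (5 of 44) and 10.4% with a second alpha chain (8 of 77). In regressing tumour 2 one pair had 2.74% (2 of 73) and 2.86% (2 of 70), and another 5.88% (3 of 51) and 2.44% (1 of 41). In growing tumour 2 one pair had 2.70% (1 of 37) and 6.52% (9 of 138), and another 0 of 53 and 1 of 43. In all 6 cases the exact 95% intervals overlapped.

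Across clonotypes of 20 or more cells, the interferon-stimulated share was lower where more of the clone's remaining cells were in Dividing clusters in the regressing tumours. Spearman's rho was -0.598 over 22 clonotypes in regressing tumour 2 and -0.745 over 17 in regressing tumour 3, with Pearson's r at -0.568 and -0.622. It was -0.0987 over 16 clonotypes in growing tumour 2 and -0.0150 over 13 in growing tumour 3. These describe clonotypes that share a library and its depth. The share was also lower where the clone's remaining cells had more UMIs at the median in the regressing tumours (rho -0.269 in tumour 2 and -0.684 in tumour 3), while rho was -0.0191 in growing tumour 2 and -0.0299 in growing tumour 3. The part of UMIs in the relation was not tested. With the share of the remaining cells in exhausted clusters, rho was -0.190, -0.245, 0.152 and -0.468 in regressing tumours 2 and 3 and growing tumours 2 and 3.

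Named clonotypes made up less of the interferon-stimulated cells than of the other labelled cells in 3 of 4 tumours. In regressing tumour 2 they were 52.1% of 238 interferon-stimulated and 62.5% of 3945 other cells, and in regressing tumour 3 78.5% of 303 and 77.9% of 4637. In growing tumour 2 they were 46.9% of 145 and 50.8% of 3032, and in growing tumour 3 52.9% of 17 and 76.0% of 1279. The mean difference was -9.18 ± 10.3 percentage points (SD, n = 4, two-sided exact sign-flip p = 0.25). It was -4.56 without growing tumour 3, whose value rests on 17 cells. With each named clonotype capped at 50 cells by random draws it was -5.68 percentage points.

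The authors also sorted receptors into 10 groups of similar sequence, deposited as GLIPH groups, after the algorithm that clusters receptors likely to share a target. Cells in such a group were less frequent among interferon-stimulated cells in 4 of 4 tumours. They were 33.6% against 45.8% and 59.7% against 66.0% in regressing tumours 2 and 3. They were 44.1% against 52.9% and 47.1% against 51.0% in growing tumours 2 and 3. The mean difference was -7.79 ± 3.52 percentage points (SD, n = 4, two-sided exact sign-flip p = 0.12, the smallest that 4 libraries allow). Single groups weighed heavily in it. Group2 made up 39.9% of interferon-stimulated and 51.1% of other labelled cells in regressing tumour 3. Group4 made up 5.88% and 19.4% in growing tumour 3. Group1 went the other way in these tumours, at 10.9% and 5.22%, and at 17.6% and 6.41%. No cap on clone size was run for this measure.

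The groups differed in their interferon-stimulated share and in whether it was lower in growing tumours. Group1 had 59 of 1153 cells (5.12%) and 33 of 275 (12%) in regressing tumours 2 and 3, and 13 of 285 (4.56%) and 3 of 85 (3.53%) in growing tumours 2 and 3. Group4 had 7 of 135 (5.19%) in regressing tumour 2 and 1 of 249 (0.402%) in growing tumour 3, where it was the largest clone alone. Group7 had 11 of 154 (7.14%) in regressing and 2 of 91 (2.20%) in growing tumour 3. Nearly all of these were of 1 clone in regressing tumour 3 (11 of 153) and of another in growing tumour 3 (2 of 90). Group3 was alike in its libraries, with 2.88% and 2.94% in regressing tumours 2 and 3 and 28 of 914 (3.06%) in growing tumour 2. Group8 went the other way, with 3 of 114 (2.63%) in regressing and 12 of 241 (4.98%) in growing tumour 2, with overlapping intervals.

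Group5 had 2 of 61 (3.28%) in regressing tumour 2, 6 of 186 (3.23%) in growing tumour 2 and 0 of 164 in growing tumour 3, which allows up to 1.83%. Group2, in tumours almost all of it from regressing tumour 3, had 121 of 2489 (4.86%) there. Group9 had 3 of 290 (1.03%) and 13 of 192 (6.77%) in regressing tumours 2 and 3, and these exact intervals did not overlap. Most of its cells were of 1 clone in each tumour, with different receptors. That clone had 3 of 263 in regressing tumour 2 and 11 of 169 in regressing tumour 3, so clone and tumour cannot be told apart. Group10 had 3 of 16 (18.8%) in regressing tumour 2 and 0 of 15 in regressing tumour 3, which allows up to 20%. It had 4 of 28 (14.3%) and 2 of 62 (3.23%) in growing tumours 2 and 3. Group6 held 4 labelled tumour cells and none was interferon-stimulated.

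Interferon-stimulated cells were mostly called in G1, the phase before DNA synthesis. G1 calls made up 87.1%, 77.6% and 79.2% of them in regressing tumours 1, 2 and 3 and 85.1%, 76.4% and 82.1% in growing tumours 1, 2 and 3. S-phase calls made up 11 of 101, 94 of 441 and 86 of 477 (10.9%, 21.3% and 18.0%) in regressing, and 9 of 67, 39 of 191 and 4 of 28 (13.4%, 20.4% and 14.3%) in growing tumours 1, 2 and 3. The states overlapped, at 16.0% ± 3.81 in growing and 16.7% ± 5.33 in regressing tumours (SD, n = 3 each, exact permutation p = 0.90). Within each state, the 3′ library had a lower share of S-phase calls than the 5′ libraries. In growing tumours that share, 13.4%, lay within the exact 95% interval of growing tumour 3 (4.03% to 32.7%). Other cells outside the Dividing clusters had this order in growing tumours only, at 18.7%, 20.6% and 18.8% in tumours 1, 2 and 3. In regressing tumours 1, 2 and 3 they had 24.5%, 22.3% and 25%. With 1 3′ library a state, a difference between kits was not tested.

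G2M calls, the phases before and during mitosis, were rare. There were 2, 5 and 13 such cells in regressing and 1, 6 and 1 in growing tumours 1, 2 and 3. The shares were 2.74% ± 1.10 in growing and 1.95% ± 0.796 in regressing tumours (SD, n = 3 each, exact permutation p = 0.40). The difference of 0.789 percentage points was 0.370 without growing tumour 3, 0.382 without regressing tumour 2 and 1.41 without growing tumour 1. Median S scores averaged -0.0491 ± 0.00481 over growing and -0.0488 ± 0.00119 over regressing tumours (exact permutation p = 1.0). Their median G2M score was -0.0906 ± 0.0112 against -0.0854 ± 0.00347 (exact permutation p = 0.70). Without growing tumour 3 the difference in G2M score was 0.000933, of opposite sign.

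**Figure D4:**
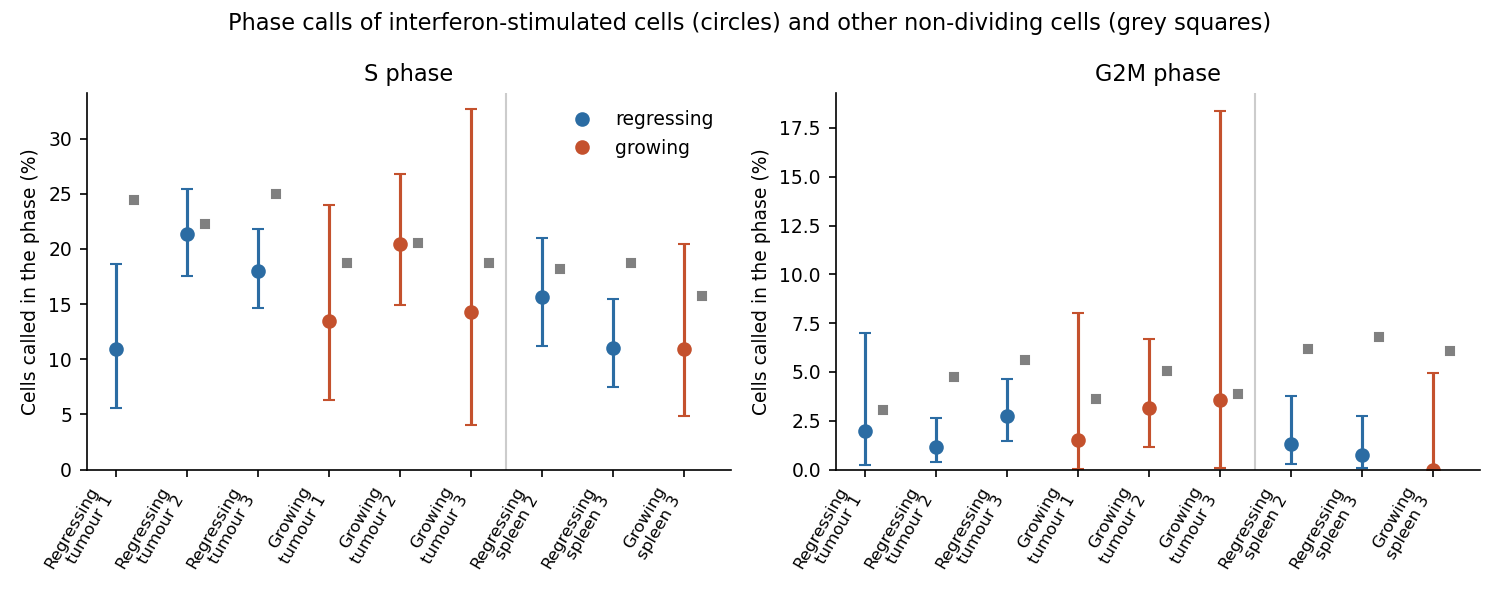
Percent of interferon-stimulated cells called in S phase (left) and in G2M phase (right) in each library, with exact 95% binomial intervals; grey squares are the other cells outside the Dividing clusters. S-phase shares of the growing tumours, 13.4% to 20.4%, lie within those of the regressing tumours, 10.9% to 21.3%, and the intervals for growing tumour 3 are wide because it holds 28 cells.

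The RNA content of interferon-stimulated cells followed the depth of their library. Median UMIs per cell were 4815, 4966 and 6728 in regressing and 5266, 6752 and 9071 in growing tumours 1, 2 and 3. The groups overlapped, and the means were 7030 ± 1918 in growing and 5503 ± 1064 in regressing tumours (SD, n = 3 each, exact permutation p = 0.20, adjusted p = 0.75 over 5 measures). The medians of genes detected per cell averaged 2150 ± 294 and 1863 ± 240 in the same order (exact permutation p = 0.30). Mitochondrial UMIs, a sign of cell stress when high, had medians of 1.84% ± 0.181 against 1.74% ± 0.152 (exact permutation p = 0.60). The difference in UMIs, 0.33 on the log2 scale, was 0.13 without growing tumour 3 and 0.53 without growing tumour 1. The difference in genes shrank from 287 to 127 without growing tumour 3, and without growing tumour 2 that in mitochondrial percent was -0.00125 in place of 0.0995.

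Set against the other cells of the same library, interferon-stimulated cells had lower median UMIs in all 6 tumours. The log2 ratio of medians was -0.15, -0.19 and -0.08 in regressing and -0.35, -0.22 and -0.38 in growing tumours 1, 2 and 3. The groups did not overlap, with means of -0.32 ± 0.0858 and -0.14 ± 0.0524 (SD, n = 3 each, exact permutation p = 0.10, the smallest possible). Of the 9 clusters with 20 or more cells in each tumour library, 44.4% did not overlap in this measure, all of them lower in growing tumours. Dividing cells, which have the most UMIs, were more frequent in growing tumours. With the Dividing clusters left out of the reference, the log2 ratios overlapped between the states, at -0.13 ± 0.103 in growing and -0.05 ± 0.0256 in regressing tumours (exact permutation p = 0.30). With the Naive clusters left out as well they did not overlap, at -0.18 ± 0.108 and -0.06 ± 0.0260 (exact permutation p = 0.10).

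Within a tumour, interferon-stimulated cells were rare among the cells with the most UMIs. Cells of each library were cut into 5 equal bins by UMIs. In the top bin the share was 1.51%, 3.32% and 3.99% in regressing and 0.559%, 2.11% and 0.578% in growing tumours 1, 2 and 3. In the second bin from the bottom it was 9.06%, 7.47% and 8.18% in regressing and 4.75%, 6.34% and 1.45% in growing tumours 1, 2 and 3. In the bottom bin it was 5.74%, 6.13% and 6.18% in regressing and 5.59%, 4.81% and 3.18% in growing tumours. The bottom, second and top bins of growing tumour 3 held 11, 5 and 2 interferon-stimulated cells. Dividing cells were counted in these bins, and their part in the low top bin was not tested. Because the share varied by bin, libraries were also compared at the same mix of UMIs per cell, in 5 strata. The difference between the states was then -2.03 percentage points, again without overlap (exact permutation p = 0.10).

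**Figure D5:**
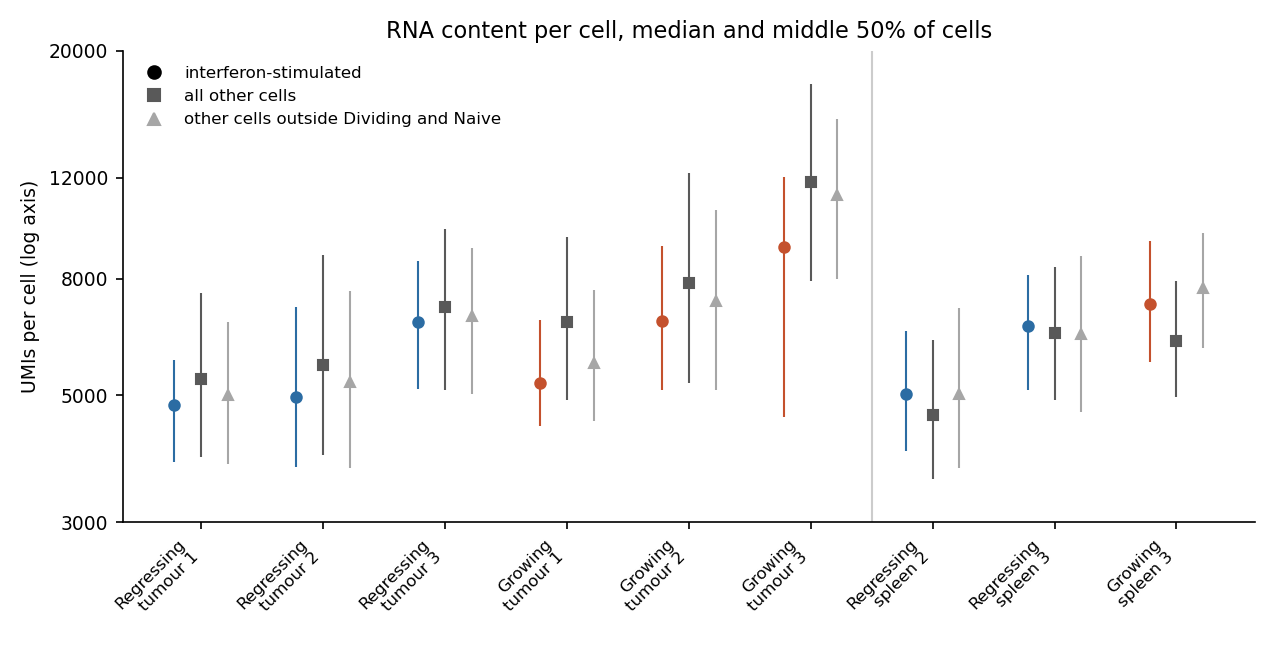
Median UMIs per cell (log axis) in each library for interferon-stimulated cells (coloured circles), all other cells (dark squares) and other cells outside the Dividing and Naive clusters (light triangles); bars span the middle 50% of cells. In tumours the circles lie under the squares in all 6 libraries, and in spleens above them, from 5035.5 against 4623.5 to 7210 against 6226.

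Tumour and spleen were compared in 3 pairs of libraries of the same state and number, and the order depended on the cells they were counted among. The labels do not say whether the tumour and spleen of a pair came from the same mouse. Of all cells, 5.63% in tumour and 3.49% in spleen were interferon-stimulated in regressing pair 2, and 6.56% and 4.37% in regressing pair 3. In growing pair 3 they were 1.62% and 1.85%. The mean paired difference was 1.37 ± 1.38 percentage points, higher in the tumour in 2 of 3 pairs (two-sided exact sign-flip p = 0.50). It was 2.17 without growing pair 3.

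Spleens held mostly naive cells, and outside the Naive clusters the spleen had the higher share in 3 of 3 pairs. There it was 8.84% in spleen and 5.86% in tumour of regressing pair 2, and 9.20% and 6.77% in regressing pair 3. In growing pair 3 it was 6.12% and 1.72%. The mean paired difference was -3.27 ± 1.02 percentage points (SD, n = 3, exact sign-flip p = 0.25, the smallest that 3 pairs allow). Among Other-labelled cells outside the Naive clusters it was -3.55 ± 0.557. With naive cells kept in, the tumour had the higher share in 3 of 3 pairs both among Other-labelled cells (mean difference 1.77 ± 1.24) and among unlabelled cells (2.22 ± 1.30).

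The spleen of the growing state had the lowest share of the 3 spleens, as its tumour had the lowest of the tumours. Of all cells, 73 of 3939 (1.85%, exact 95% interval 1.46% to 2.32%) were interferon-stimulated, against 230 of 6598 (3.49%, 3.06% to 3.96%) and 263 of 6020 (4.37%, 3.87% to 4.92%) in regressing spleens 2 and 3. Outside the Naive clusters it was 6.12% (4.83% to 7.64%) against 8.84% (7.78% to 10.0%) and 9.20% (8.17% to 10.3%). Neither interval overlapped, but with 1 growing spleen there is no test.

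Spleen cells that the authors pooled under the label Top_Spleen had 8 interferon-stimulated cells of 310 (2.58%) and 14 of 396 (3.54%) in regressing spleens 2 and 3. Other-labelled spleen cells had 4.03% and 4.46% there, within the exact 95% intervals for Top_Spleen (1.12% to 5.02% and 1.95% to 5.86%). Outside the Naive clusters, Other-labelled spleen cells had 11.5% and 10.8%. The Top_Spleen share outside those clusters was not computed. Group1 could be followed in both tissues. It had 6 of 205 (2.93%, exact 95% interval 1.08% to 6.26%) in regressing spleen 2 and 5.12% (3.92% to 6.55%) in the tumour of that number, which overlapped. It had 8 of 242 (3.31%, 1.44% to 6.41%) in regressing spleen 3 and 12% (8.41% to 16.4%) in the tumour, which did not. The group shares count naive cells as well, and group shares outside the Naive clusters were not computed. The other groups with 20 or more cells in a spleen library had overlapping intervals. Group2 had 3 of 106 (2.83%) in regressing spleen 3 and 4.86% in the tumour. Group9 had 1 of 67 (1.49%) in regressing spleen 2 and 1.03% in the tumour, and Group5 had 1 of 25 (4%) and 3.28%. Over the 3 spleens the share of cells in a similarity group differed between interferon-stimulated and other labelled cells by -0.699 ± 3.37 percentage points, lower in 2 of 3 (exact sign-flip p = 0.75).

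Interferon-stimulated cells of the tumour were called in S phase more often than those of the spleen in 3 of 3 pairs. The shares were 21.3% and 15.7% in regressing pair 2, 18.0% and 11% in regressing pair 3, and 14.3% and 11% in growing pair 3 (mean difference 5.33 ± 1.86 percentage points, exact sign-flip p = 0.25). The other cells outside the Dividing clusters did likewise, with 22.3% and 18.2%, 25% and 18.8%, and 18.8% and 15.7% in the same order. G2M calls were 0 of 73 in the growing spleen, which allows up to 4.11%. Median mitochondrial UMIs were lower in tumour in 3 of 3 pairs, at 1.91% against 2.98%, 1.69% against 2.77% and 1.69% against 3.16%. The other cells of these libraries differed likewise, with medians of 1.71% to 2.02% in the tumours and 2.83% to 3.24% in the spleens. Median genes per interferon-stimulated cell were higher in tumour in 3 of 3 pairs, by 74 to 488.5. The other cells differed the same way and by more, with medians of 1860 in tumour and 1485 in spleen, 2238 and 1996, and 3004 and 1834.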

How the data were processed

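The authors deposited 1 table of 41099 cells, processed with Cell Ranger per the submitters' processing notes, version and genome build not given in the sources used here. It holds deposited counts of UMIs and of genes per cell, without normalisation, the deposited percent of mitochondrial UMIs, and an S and a G2M score per cell that, per the file headers, come from cell-cycle scoring in Seurat. Phase calls followed those scores in 100% of cells. Cluster, clonotype and GLIPH labels are the authors'. No cell had fewer than 501 genes or over 9.83% mitochondrial UMIs. How the authors handled doublets and free RNA is not stated in the labels, and no further cell was removed. Tables of variants in A223 cells hold no T cell measurement and stayed out.

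Each library counted as 1 replicate. Shares and medians were computed per library with Python 3.11.15 and scipy 1.17.1 and compared with two-sided exact permutation tests (tumour states) or exact sign-flip tests (pairs), with Benjamini-Hochberg adjustment over clusters or over 5 per-cell measures. Logit shares of all clusters (0.5 cells added) were fitted with limma 3.58.1. The fit was also run on simulated tables with increases in growing libraries only and a small set spread between libraries. Those runs cover neither a decrease nor the spread of this cluster. Intervals are Clopper-Pearson at 95%, and for a count of 0 the share of 3 counts is printed as its limit. Neither covers more than counting error. Deviations of cluster shares from state means correlated between same-numbered tumours at 0.830, 0.302 and 0.627, and between different numbers at -0.768 to 0.498, so the number was also used as a block. The clonotypes described are the 3 with the most interferon-stimulated cells in a library (at least 5), those with 20 or more cells in both states, and the ends of the range at 50 or more cells. They are given by library and cell number, without receptor sequence. Clones with a second alpha chain, the shared beta chain and the relations across clonotypes were added after their values were seen. Members, lists and tests were chosen with earlier results of these data known.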

Additional observations from a re-analysis of the deposited data

Results flagged for a closer look

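The difference in interferon-stimulated share between tumour and spleen, over all cells, had opposite signs in the states. It was 2.14 and 2.19 percentage points in regressing pairs 2 and 3 and -0.232 in growing pair 3, where the exact intervals of tumour and spleen overlapped. This difference between the states was not tested, since there is 1 growing pair. Among Other-labelled and among unlabelled cells the sign did not change. In growing pair 3 the tumour was higher among Other-labelled cells (2.54%, 1.10% to 4.94%, and 1.87%, 1.40% to 2.45%). It was also higher among unlabelled cells (2.55%, 1.28% to 4.52%, and 1.83%, 1.15% to 2.76%), as in the regressing pairs. These exact 95% intervals overlapped in both classes. Named clonotypes, at 9 of 981 cells (0.917%) in growing tumour 3, could not be compared, since no spleen cell carried such a name.

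Interferon-stimulated cells had fewer UMIs at the median than all other cells of their library in tumours and more in spleens. The log2 ratio of medians was -0.22 ± 0.123 in the 4 tumours of the 5′ kit and 0.12 ± 0.0873 in the 3 spleens, a difference of -0.34 without overlap. The ratio was lower in the tumour in 3 of 3 pairs of the same state and number. No p is given, since the difference was picked out after its values were seen and 3 of the tumours pair with the spleens. The other cells of a spleen are mostly naive and few are dividing. Against other cells outside the Dividing clusters the difference was -0.24, again without overlap. Against other cells outside both the Dividing and the Naive clusters it was -0.12 and the tissues overlapped. With that reference the spleens no longer lay above 0 as a set, at a mean of -0.0166 ± 0.0733. Regressing spleens 2 and 3 had 1.43e-04 and 0.0470, and growing spleen 3 had -0.0968.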

How the results depend on the processing

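Of 138 alternatives run over 17 results, 131 kept the direction, and none that had a test crossed the threshold of 0.05. Leaving out 1 library within a class of receptor label left no test, and those alternatives were judged by direction alone. The exact designs could reach at best p = 0.10 for 3 libraries against 3, so staying above the threshold says little. The lower share in growing tumours ranged from -3.41 to -1.98 percentage points over its alternatives, and its replicate block gave -2.81 (exact sign-flip p = 0.25). Under limma with the replicate block it was -0.73 on the logit scale (adjusted p = 0.0743). Under limma with no block, leaving out each library in turn gave -0.93 to -0.41. The block changed no call of the results reported here. The 7 reversals were all from leaving out 1 library, in measures near 0. The S-phase difference ranged from -3.63 to 1.59 percentage points (1.59 without regressing tumour 2, 0.607 without growing tumour 1, 0.181 without growing tumour 3). The difference in median S score ranged from -0.00220 to 0.00241 (2.43e-04 without regressing tumour 1), in G2M score from -0.00994 to 0.000933 and in mitochondrial percent from -0.00125 to 0.185; the cause was not tested. Chosen after seeing the data were leaving out the Naive with the Dividing clusters, the largest clones or all but Other-labelled cells, setting median UMIs against cells outside the Dividing clusters, and the alternatives for median genes, mitochondrial percent and cycle scores. Growing tumour 3, with 28 cells of the cluster, limits the precision of every value that rests on it.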
